A study of Mus musculus with 12 samples.

Results

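Ribosome biogenesis factors are the proteins that make, modify, cleave and assemble ribosomal RNA before a ribosome can translate. A list of 48 such genes was followed by transcript level under the MEK inhibitor GDC-0623 in MC38, a colon carcinoma line of the mouse. The genes come from a list of names, drawn up with earlier results of these data known, and were sorted into 5 roles, namely RNA polymerase I transcription (5 genes), multifunctional nucleolar proteins (4), small nucleolar ribonucleoproteins (9), small subunit assembly (14) and large subunit assembly (16). Each gene was read from 1 probe set, the brightest on average over the 12 arrays of those that carry a single symbol. This gave values for 47 of the 48 genes, out of 18193 genes measured in the series. The exception was Mrto4, a large subunit assembly factor, whose probe set is annotated to pseudogene copies as well.

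The study asked how MEK inhibition changes the tumour cells themselves. Monolayers received 100 nM GDC-0623 for 24 h, DMSO for 24 h, 100 nM GDC-0623 for 72 h or DMSO for 72 h, starting the day after seeding. Each of the 4 groups held 3 arrays, which the submitters describe as biological replicates, and all cells were of the same line, with DMSO as the solvent of the drug. Total RNA was labelled from its 3′ end and hybridised to 1-colour Affymetrix mouse arrays.

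In the nucleolus, RNA polymerase I transcribes the ribosomal DNA into a long precursor. Small nucleolar ribonucleoproteins guide the methylation and pseudouridylation of that precursor, and separate sets of factors cut and fold its parts into the small and the large subunit. Growth signals set the pace of this pathway. ERK, the kinase that MEK activates, is known to act on RNA polymerase I factors and to stabilise the Myc protein, and many genes of ribosome assembly are known targets of Myc.

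Values are log2 expression values after robust multichip averaging (RMA), so a difference of 1 is a doubling. Array medians ran from 4.63 to 4.7, and quantile normalisation removes any change shared by most transcripts. A lower value therefore means a lower share of the RNA. In such bulk samples, fewer cells carrying a transcript and less of it in each cell cannot be told apart. The first GDC-0623 replicate stood apart at both times. On the first principal component of all tested probe sets it lay at 16.8 at 24 h, where the other two lay at 5.72 and 4.57, and at 77.4 at 72 h, where the other two lay at 44.8 and 49.8. Colon epithelial markers were dim in all groups, with group means of 3.97 to 4.08 over 14 genes and no gene above a mean of 5.74, and leukocyte and endothelial markers were equally dim. Of 9 fibroblast markers, 4 were higher with GDC-0623 at 24 h and 6 at 72 h, against 13.3% and 13.8% of all genes. Their group means were 7.17 under GDC-0623 and 6.56 under DMSO at 24 h, and 8.14 and 7.05 at 72 h. The part of that replicate and of these markers in the results was tested only as far as values without the replicate are given.

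Nearly the whole list fell under GDC-0623, and none of it rose. At 24 h, 42 of the 47 measured factors were lower in GDC-0623 cultures, against 8.23% of all genes, and 0 were higher, against 13.3% of all genes (limma, adjusted p under 0.05). At 72 h, 45 of the 47 were lower, against 12.4% of all genes, and 0 were higher, against 13.8%. The members are well expressed transcripts, with means from 7.62 to 13.0. Among the 7706 genes with a mean of at least 7, the share that fell was 14.7% at 24 h and 23.1% at 72 h.

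The changes were moderate in size. The median log2 fold change over the members was -0.48 at 24 h, with a range of -0.83 to -0.06, and -0.63 at 72 h, with a range of -1.08 to 0.06, beside medians of -0.03 at both times over all genes. Of the 47 members, 0 fell by 2-fold or more at 24 h and 1, Nop16, did so at 72 h, beside 52 and 156 of all 18193 genes. A further probe set of Dkc1 also passed 2-fold at 72 h (-1.01, adjusted p = 0.0027). All 3 GDC-0623 arrays lay below all 3 DMSO arrays for 46 of the 47 members at 24 h and for 46 at 72 h, a separation shown by 20.0% and 23.7% of all genes. The same 42 factors were lower at both times, Npm1, Ddx21 and Utp18 passed the threshold at 72 h alone, and Polr1a and Ubtf passed it at neither. When each array was shifted by its spiked hybridisation controls, the median of all tested probe sets at 24 h moved to 0.11 and 23 members were called lower, with a median of -0.33, while at 72 h 43 were. In that setting 1.99% of all probe sets were lower and 14.0% higher at 24 h, beside 7.43% and 9.29% without the shift. At 72 h 7.86% were lower, beside 10.2% without it. The paragraphs below do not name every member whose 24 h call was lost under this shift.

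**Figure D1:**
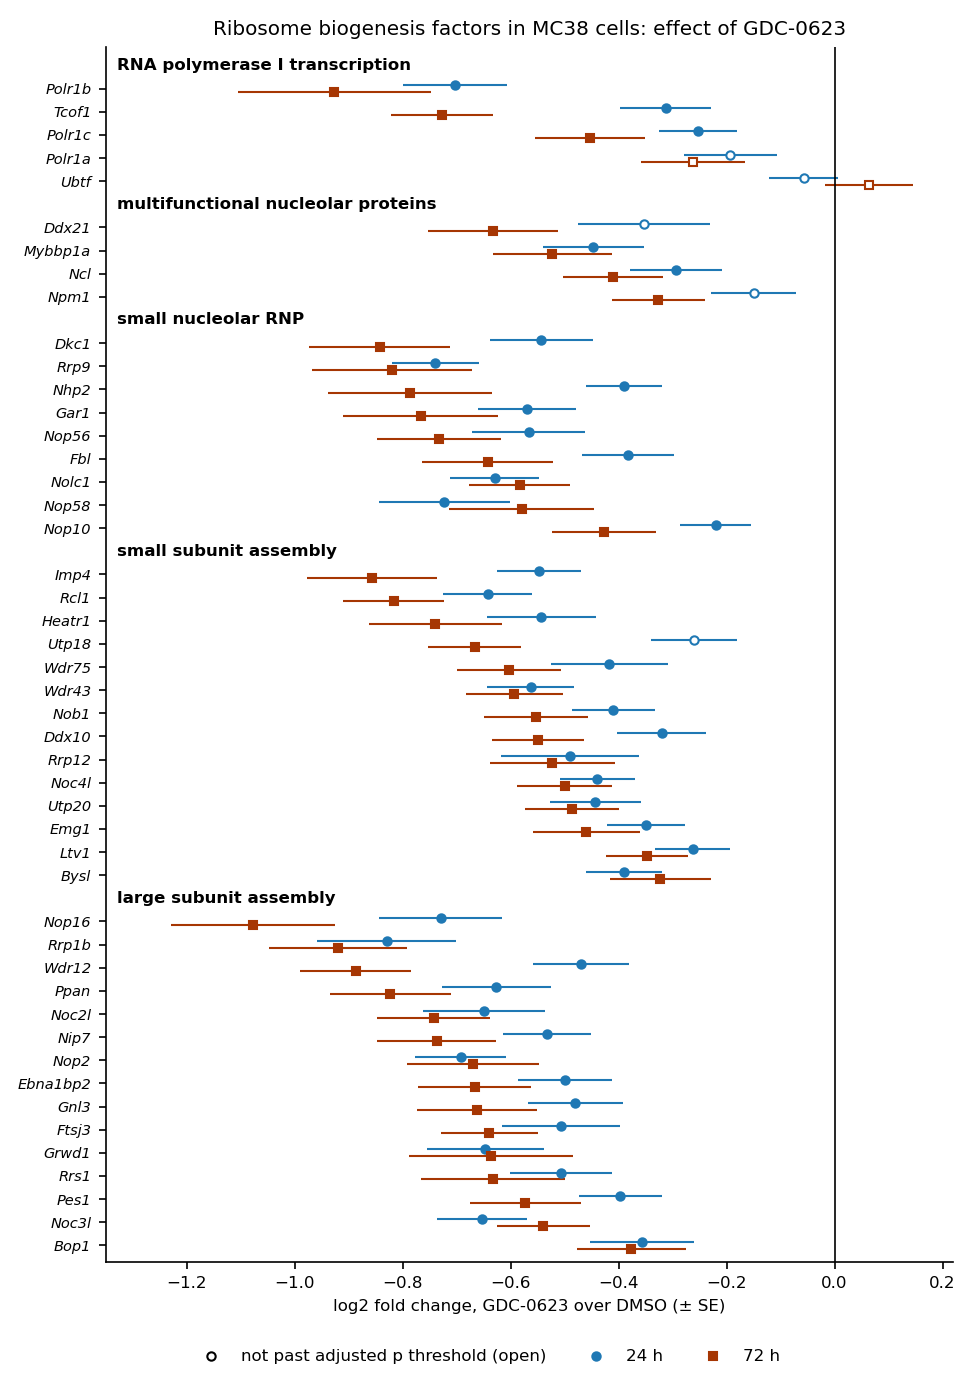
Log2 fold change of GDC-0623 over DMSO for the 47 measured ribosome biogenesis factors, in 5 roles, at 24 h (blue circles) and 72 h (red squares). Bars are standard errors of the limma fit on 3 arrays per group, and open symbols did not pass the adjusted p threshold of 0.05. Every point lies left of 0 but that of Ubtf at 72 h.

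The 5 genes of RNA polymerase I transcription were split by the test, with medians of -0.25 at 24 h and -0.45 at 72 h. Polr1b, Polr1c and Tcof1 fell at both times, while the other two did not pass the test at either. Polr1b, the second largest subunit of the polymerase, read 8.18, 8.50 and 8.52 on the GDC-0623 arrays, against 9.06, 9.13 and 9.12 on the DMSO arrays at 24 h. At 72 h it read 7.37, 8.06 and 8.15 on the GDC-0623 arrays, against 8.73, 8.78 and 8.85 on the DMSO arrays. All drug-treated values were below all controls, and the first replicate was the lowest by a wide margin at 72 h. The log2 fold change was -0.70 ± 0.096 (SE, adjusted p = 0.00113) at 24 h and -0.93 ± 0.18 (SE, adjusted p = 0.00625) at 72 h, or 1.63-fold and 1.90-fold lower.

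Tcof1 encodes treacle, a nucleolar phosphoprotein that supports transcription of ribosomal DNA. Its values at 24 h were 8.51, 8.56 and 8.79 on the GDC-0623 arrays, against 8.93, 8.92 and 8.95 on the DMSO arrays. After 72 h they were 7.99, 8.14 and 8.30 on the GDC-0623 arrays, against 8.81, 8.90 and 8.90 on the DMSO arrays. The groups were apart at both times, more widely at 72 h, with log2 fold changes of -0.31 ± 0.084 (SE, adjusted p = 0.032) and -0.73 ± 0.094 (SE, adjusted p = 0.000847). The 24 h call was lost on leaving out any one array other than the third GDC-0623 replicate.

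Polr1c is a subunit shared by RNA polymerases I and III. It showed 9.36, 9.45 and 9.53 on the GDC-0623 arrays, against 9.66, 9.73 and 9.71 on the DMSO arrays at 24 h. Its 72 h values were 8.96, 9.29 and 9.23 on the GDC-0623 arrays, against 9.57, 9.56 and 9.71 on the DMSO arrays. These shifts were smaller, -0.25 ± 0.071 (SE, adjusted p = 0.039) at 24 h and -0.45 ± 0.10 (SE, adjusted p = 0.013) at 72 h, and the first was no longer past the threshold without any one array but the third GDC-0623 replicate, nor in the fit over all 12 arrays (adjusted p = 0.0712) and with the replicate numbers as a block (adjusted p = 0.0522). Its 72 h call was lost without the third DMSO array (adjusted p = 0.0545).

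Polr1a, the largest subunit, had 8.69, 8.97 and 8.88 on the GDC-0623 arrays, against 9.00, 9.11 and 9.01 on the DMSO arrays at 24 h and 8.34, 8.48 and 8.65 on the GDC-0623 arrays, against 8.67, 8.77 and 8.82 on the DMSO arrays at 72 h. Its groups did not overlap, yet the changes of -0.19 ± 0.086 (SE, adjusted p = 0.169) and -0.26 ± 0.096 (SE, adjusted p = 0.0914) did not pass the test. Of its dimmer probe sets, that with a mean of 6.65 differed by -0.31 at 24 h (adjusted p = 0.0239) and by -0.15 at 72 h (adjusted p = 0.289). That with a mean of 6.97 passed at neither time (-0.35, adjusted p = 0.0777 and -0.20, adjusted p = 0.437). The remaining probe sets, with means of 2.62 and 2.47, did not pass. The 24 h reading of Polr1a thus depends on the probe set. Ubtf encodes UBF, the factor that keeps ribosomal DNA open and recruits the polymerase. It gave 10.51, 10.52 and 10.57 on the GDC-0623 arrays, against 10.58, 10.59 and 10.60 on the DMSO arrays at 24 h and 10.31, 10.41 and 10.45 on the GDC-0623 arrays, against 10.30, 10.26 and 10.42 on the DMSO arrays at 72 h. The 72 h groups overlapped, and the differences were -0.06 ± 0.064 (SE, adjusted p = 0.614) and 0.06 ± 0.082 (SE, adjusted p = 0.666). A second, dimmer probe set of Ubtf, with a mean of 8.48 against 10.46, differed by -0.36 at 24 h (adjusted p = 0.018) and by -0.05 at 72 h (adjusted p = 0.772), so the 24 h reading of this gene depends on the probe set.

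The 4 multifunctional nucleolar proteins are among the most abundant of the nucleolus. Ncl and Mybbp1a fell at 24 h and all 4 at 72 h, with medians of -0.32 and -0.47. Ncl, or nucleolin, which binds the nascent precursor, read 12.52, 12.82 and 12.69 on the GDC-0623 arrays, against 12.94, 13.00 and 12.97 on the DMSO arrays at 24 h. At 72 h it read 12.24, 12.50 and 12.51 on the GDC-0623 arrays, against 12.82, 12.87 and 12.79 on the DMSO arrays. The groups did not overlap at either time and differed by -0.29 ± 0.085 (SE, adjusted p = 0.0437) and -0.41 ± 0.093 (SE, adjusted p = 0.0131). Without any one array but the second GDC-0623 replicate, its 24 h call was lost, and so was its 72 h call without the second DMSO array (adjusted p = 0.0561).

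Mybbp1a is a Myb-binding protein found in ribosomal RNA processing complexes. The 24 h values were 10.94, 11.22 and 11.27 on the GDC-0623 arrays, against 11.62, 11.54 and 11.61 on the DMSO arrays. Those at 72 h were 10.59, 10.93 and 10.99 on the GDC-0623 arrays, against 11.35, 11.32 and 11.41 on the DMSO arrays. Treated arrays were below controls at both times, with log2 fold changes of -0.45 ± 0.093 (SE, adjusted p = 0.0101) and -0.52 ± 0.11 (SE, adjusted p = 0.00921). Ddx21, an RNA helicase that works on both polymerase I transcription and processing, had 9.51, 9.94 and 9.97 on the GDC-0623 arrays, against 10.10, 10.28 and 10.10 on the DMSO arrays at 24 h. Its 72 h readings were 9.17, 9.31 and 9.43 on the GDC-0623 arrays, against 9.82, 10.19 and 9.80 on the DMSO arrays. Ddx21 had the largest SDs of any member in DMSO, of 0.104 at 24 h and 0.22 at 72 h, and the changes were -0.35 ± 0.12 (SE, adjusted p = 0.0825) and -0.63 ± 0.12 (SE, adjusted p = 0.0057). Npm1, or nucleophosmin, a chaperone of ribosomal particles, differed by -0.15 ± 0.079 (SE, adjusted p = 0.244) with overlapping groups at 24 h and fell by 0.33 at 72 h (SE 0.086, adjusted p = 0.0262). That call was lost without the second (adjusted p = 0.1) or the third (adjusted p = 0.0854) DMSO array or the first GDC-0623 array (adjusted p = 0.0662), and under the shift by hybridisation controls (adjusted p = 0.0569).

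All 9 small nucleolar ribonucleoprotein genes fell at both times, with medians of -0.57 at 24 h and -0.73 at 72 h, the most negative medians of the 5 roles. The particles come in a box C/D class, which methylates RNA, and a box H/ACA class, which makes pseudouridine. From the box C/D side, Rrp9, a protein specific to the U3 particle, read 9.19, 9.25 and 9.43 on the GDC-0623 arrays, against 10.01, 9.99 and 10.09 on the DMSO arrays at 24 h. Its 72 h values were 8.59, 9.16 and 9.19 on the GDC-0623 arrays, against 9.80, 9.78 and 9.82 on the DMSO arrays. The arrays of the 2 conditions lay far apart in both cases, with log2 fold changes of -0.74 ± 0.081 (SE, adjusted p = 0.000331) and -0.82 ± 0.15 (SE, adjusted p = 0.00441).

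Nop58, a core box C/D protein, gave 10.37, 10.40 and 10.86 on the GDC-0623 arrays, against 11.24, 11.27 and 11.29 on the DMSO arrays at 24 h. It gave 9.94, 10.37 and 10.42 on the GDC-0623 arrays, against 10.93, 10.88 and 10.66 on the DMSO arrays at 72 h. Here the third GDC-0623 replicate at 24 h was nearer the controls than the others, and the log2 fold changes were -0.72 ± 0.12 (SE, adjusted p = 0.00331) and -0.58 ± 0.14 (SE, adjusted p = 0.0149). The 72 h call was lost without the first (adjusted p = 0.0633) or the second (adjusted p = 0.0615) DMSO array. Both partners of Nop58 fell at 24 h and 72 h, Nop56 by -0.57 and -0.73 and the methyltransferase fibrillarin (Fbl) by -0.38 and -0.64. Nolc1, or Nopp140, a chaperone of both classes, fell by 0.63 at 24 h and by 0.58 at 72 h.

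On the box H/ACA side, Dkc1 encodes dyskerin, the pseudouridine synthase that also stabilises telomerase RNA. Its readings were 11.09, 11.40 and 11.43 on the GDC-0623 arrays, against 11.82, 11.86 and 11.87 on the DMSO arrays at 24 h. At 72 h they were 10.52, 11.04 and 10.96 on the GDC-0623 arrays, against 11.61, 11.73 and 11.71 on the DMSO arrays. Dkc1 fell clear of its controls both times, with log2 fold changes of -0.54 ± 0.095 (SE, adjusted p = 0.00414) and -0.84 ± 0.13 (SE, adjusted p = 0.00208). Nhp2, a second core protein of the class, had 12.28, 12.39 and 12.44 on the GDC-0623 arrays, against 12.75, 12.75 and 12.78 on the DMSO arrays at 24 h. It had 11.39, 11.98 and 12.01 on the GDC-0623 arrays, against 12.55, 12.58 and 12.61 on the DMSO arrays after 72 h. All of its drug-treated values were below the controls, and the log2 fold changes were -0.39 ± 0.07 (SE, adjusted p = 0.00467) and -0.79 ± 0.15 (SE, adjusted p = 0.00612). The other core proteins were Gar1, at -0.57 and -0.77, and Nop10, the smallest mover of this role, at -0.22 and -0.43. The 24 h call of Nop10 was lost on leaving out any one array (adjusted p = 0.0542 to 0.144), in the fit over all 12 arrays (adjusted p = 0.0875), with the replicate numbers as a block (adjusted p = 0.0733), under repeated quantile normalisation (adjusted p = 0.0646) and under the shift (adjusted p = 0.781). Its 72 h call was lost without the third DMSO array (adjusted p = 0.0558), and the 24 h call of Nhp2 in the fit over all 12 arrays (adjusted p = 0.053).

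Of the 14 small subunit assembly factors, 13 fell at 24 h and all 14 at 72 h, with medians of -0.43 and -0.55. Most belong to the small subunit processome, the particle that folds and cuts the 18S part of the precursor. Imp4, a protein of the U3 particle, had the largest 72 h change of the role. It read 9.27, 9.48 and 9.46 on the GDC-0623 arrays, against 9.91, 9.95 and 9.99 on the DMSO arrays at 24 h. Its 72 h values were 8.54, 9.04 and 8.79 on the GDC-0623 arrays, against 9.59, 9.70 and 9.65 on the DMSO arrays. The groups did not overlap at either time, with log2 fold changes of -0.55 ± 0.078 (SE, adjusted p = 0.00136) and -0.86 ± 0.12 (SE, adjusted p = 0.0013).

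Rcl1, a processome protein needed for early cleavage, had 8.99, 9.20 and 9.24 on the GDC-0623 arrays, against 9.75, 9.85 and 9.76 on the DMSO arrays at 24 h. At 72 h its values were 8.63, 8.91 and 8.85 on the GDC-0623 arrays, against 9.54, 9.68 and 9.62 on the DMSO arrays. The replicates were close and the groups well apart, at -0.64 ± 0.083 (SE, adjusted p = 0.000815) and -0.82 ± 0.094 (SE, adjusted p = 0.000455). Heatr1, the mammalian counterpart of yeast Utp10, links the processome to polymerase I transcription. It showed 8.93, 9.28 and 9.28 on the GDC-0623 arrays, against 9.65, 9.70 and 9.77 on the DMSO arrays at 24 h. It showed 8.40, 8.73 and 8.87 on the GDC-0623 arrays, against 9.28, 9.46 and 9.48 on the DMSO arrays at 72 h. Drug-treated arrays were below controls throughout, with log2 fold changes of -0.54 ± 0.10 (SE, adjusted p = 0.0057) and -0.74 ± 0.12 (SE, adjusted p = 0.00303).

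Wdr43, the counterpart of yeast Utp5, changed nearly equally at both times. Its values were 9.80, 9.87 and 10.06 on the GDC-0623 arrays, against 10.49, 10.45 and 10.48 on the DMSO arrays at 24 h. They were 9.67, 9.94 and 9.87 on the GDC-0623 arrays, against 10.46, 10.41 and 10.39 on the DMSO arrays at 72 h. The differences were -0.56 ± 0.081 (SE, adjusted p = 0.00144) and -0.59 ± 0.089 (SE, adjusted p = 0.0018). Nob1, the endonuclease that makes the final cut of 18S RNA in the cytoplasm, read 9.45, 9.52 and 9.67 on the GDC-0623 arrays, against 9.92, 9.98 and 9.97 on the DMSO arrays at 24 h. The 72 h readings were 8.86, 9.17 and 9.15 on the GDC-0623 arrays, against 9.62, 9.61 and 9.61 on the DMSO arrays. The groups were separate and differed by -0.41 ± 0.076 (SE, adjusted p = 0.00574) and -0.55 ± 0.097 (SE, adjusted p = 0.00377).

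Rrp12, a factor that accompanies the particle out of the nucleus, was the dimmest member and the one that moved most with time in culture. At 24 h it read 7.40, 7.82 and 7.95 on the GDC-0623 arrays, against 8.15, 8.29 and 8.20 on the DMSO arrays. At 72 h it read 6.84, 6.90 and 7.26 on the GDC-0623 arrays, against 7.50, 7.46 and 7.61 on the DMSO arrays. The GDC-0623 replicates were spread widely, the first of them lowest at both times, and the differences were -0.49 ± 0.13 (SE, adjusted p = 0.0282) and -0.52 ± 0.12 (SE, adjusted p = 0.0118). Its 24 h call was lost without any single DMSO array or the second GDC-0623 array. Utp18, a processome subunit, did not pass the test at 24 h (-0.26 ± 0.08 SE, adjusted p = 0.0539) but fell at 72 h (-0.67 ± 0.086 SE, adjusted p = 0.000832). The remaining small subunit factors, Wdr75, Utp20, Noc4l, Bysl, Ltv1, Emg1 and Ddx10, fell at both times, from -0.44 (Utp20 and Noc4l) to -0.26 (Ltv1) at 24 h and from -0.60 (Wdr75) to -0.32 (Bysl) at 72 h. The 24 h calls of Wdr75, Ltv1 and Ddx10 were lost without any one DMSO array (adjusted p = 0.0601 to 0.0875), those of Ltv1 and Ddx10 also without the first GDC-0623 array, Ltv1 without the second and Ddx10 without the third. The 72 h call of Bysl was lost without any one DMSO array (adjusted p = 0.0933 to 0.112), without the first (adjusted p = 0.0739) or the third (adjusted p = 0.0541) GDC-0623 array, and under the shift (adjusted p = 0.0749).

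All 15 measured large subunit assembly factors fell at both times, with medians of -0.53 and -0.67. Nop16, a factor of early pre-60S particles, had the largest 72 h change of all members. Its 24 h values were 9.17, 9.57 and 9.62 on the GDC-0623 arrays, against 10.12, 10.24 and 10.19 on the DMSO arrays. Its 72 h values were 8.60, 9.22 and 9.18 on the GDC-0623 arrays, against 10.07, 10.14 and 10.02 on the DMSO arrays. Every treated array was below every control, and the first replicate was again the lowest. The log2 fold changes were -0.73 ± 0.11 (SE, adjusted p = 0.00229) and -1.08 ± 0.15 (SE, adjusted p = 0.00133), or 1.66-fold and 2.11-fold lower.

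Rrp1b, a nucleolar protein of the pre-60S pathway, had the largest 24 h change. It gave 7.90, 8.41 and 8.41 on the GDC-0623 arrays, against 9.06, 9.08 and 9.07 on the DMSO arrays at 24 h. It gave 7.48, 7.95 and 7.90 on the GDC-0623 arrays, against 8.57, 8.77 and 8.75 on the DMSO arrays at 72 h. The 24 h controls were nearly equal, and the changes were -0.83 ± 0.13 (SE, adjusted p = 0.00205) and -0.92 ± 0.13 (SE, adjusted p = 0.00125). Wdr12 forms the PeBoW complex with Pes1 and Bop1, which is needed to process the precursor of 28S RNA. Wdr12 read 9.24, 9.48 and 9.55 on the GDC-0623 arrays, against 9.86, 9.89 and 9.93 on the DMSO arrays at 24 h. After 72 h it read 8.81, 9.16 and 9.14 on the GDC-0623 arrays, against 9.92, 9.94 and 9.91 on the DMSO arrays. The 72 h controls were tight, and the changes were -0.47 ± 0.088 (SE, adjusted p = 0.00605) and -0.89 ± 0.10 (SE, adjusted p = 0.000478). The 2 other members of the complex were Pes1, at -0.40 and -0.57, and Bop1, at -0.36 and -0.38. The 24 h call of Bop1 was lost without any one array but the third GDC-0623 replicate (adjusted p = 0.0707 to 0.0965), and its 72 h call without any one DMSO array (adjusted p = 0.0641 to 0.0982).

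Nop2, a methyltransferase of 28S RNA long known as a proliferation antigen, had 8.67, 8.77 and 8.95 on the GDC-0623 arrays, against 9.44, 9.51 and 9.52 on the DMSO arrays at 24 h. It had 8.12, 8.55 and 8.49 on the GDC-0623 arrays, against 8.98, 9.00 and 9.19 on the DMSO arrays at 72 h. Values under the drug were lower throughout, with log2 fold changes of -0.69 ± 0.084 (SE, adjusted p = 0.000587) and -0.67 ± 0.12 (SE, adjusted p = 0.00463). Grwd1, a histone-binding protein of pre-60S particles, read 9.58, 9.92 and 10.02 on the GDC-0623 arrays, against 10.48, 10.52 and 10.46 on the DMSO arrays at 24 h. At 72 h the readings were 9.01, 9.56 and 9.66 on the GDC-0623 arrays, against 10.06, 10.06 and 10.02 on the DMSO arrays. Its first GDC-0623 replicate at 72 h lay far below the other two, and the changes were -0.65 ± 0.11 (SE, adjusted p = 0.00319) and -0.64 ± 0.15 (SE, adjusted p = 0.0168). The 72 h call of Grwd1 was lost without the first (adjusted p = 0.0585) or second (adjusted p = 0.0604) DMSO array. The other factors of the role were Ppan (-0.63 and -0.82), Noc2l (-0.65 and -0.74), Nip7 (-0.53 and -0.74), Ebna1bp2 (-0.50 and -0.67, with the 72 h call lost when its probe sets were averaged, adjusted p = 0.167), the nucleolar GTPase Gnl3 or nucleostemin (-0.48 and -0.66), the methyltransferase Ftsj3 (-0.51 and -0.64), Rrs1 (-0.51 and -0.63) and Noc3l (-0.65 and -0.54).

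**Figure D2:**
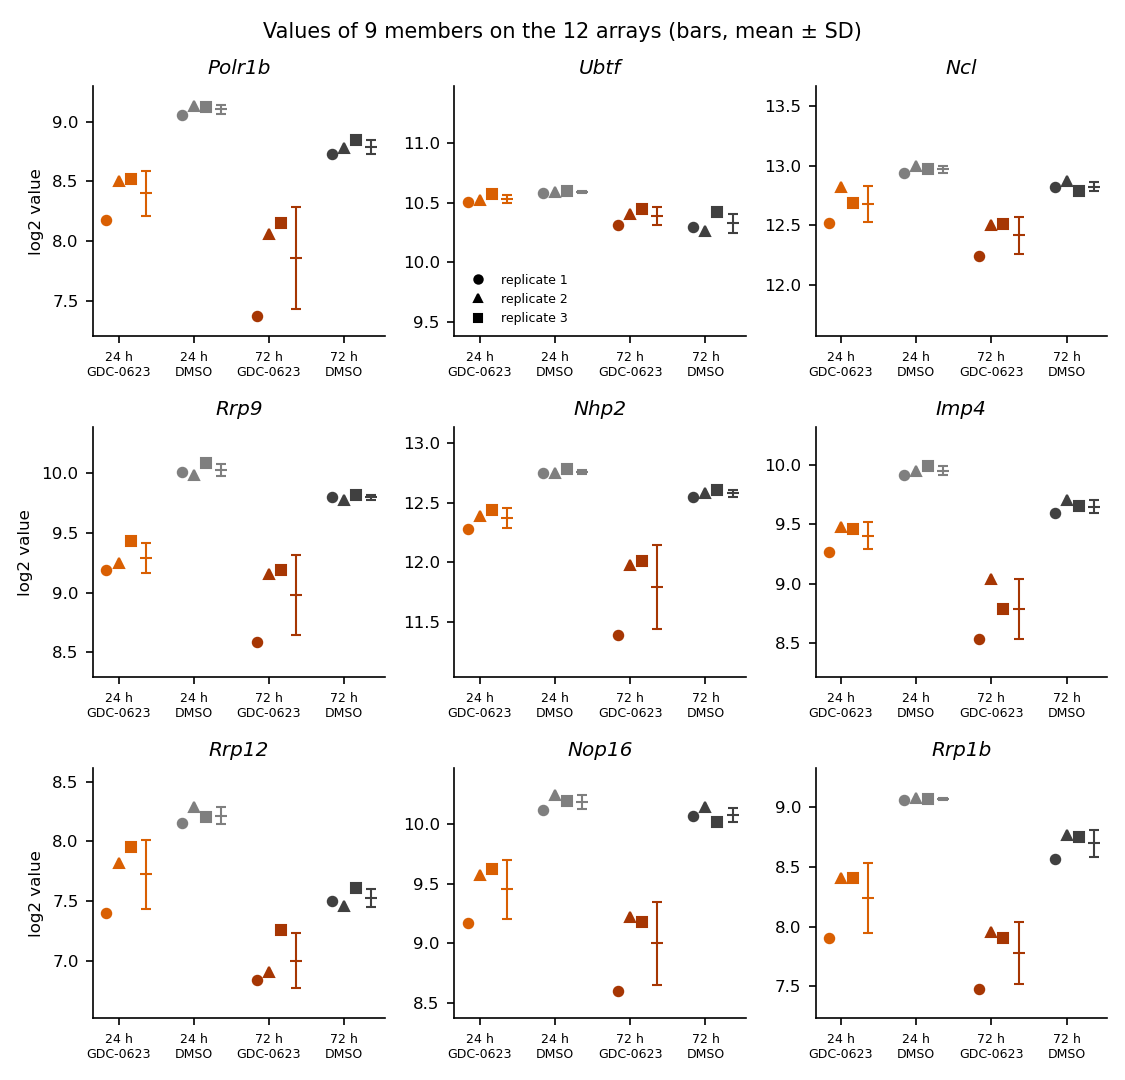
Log2 values of 9 members on the 12 arrays, with GDC-0623 left of DMSO at 24 h and at 72 h. Symbols give the replicate number, bars beside them the mean ± SD of 3 arrays, and all panels span the same range. Ubtf stayed between 10.26 and 10.60, while Nop16 lay between 8.60 and 9.62 under GDC-0623 and between 10.02 and 10.24 under DMSO.

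Averaged over the 47 members, the arrays fell in 4 separate blocks. The mean was 9.79, 10.01 and 10.07 on the 24 h GDC-0623 arrays, against 10.41, 10.44 and 10.43 on the 24 h DMSO arrays. At 72 h it was 9.39, 9.71 and 9.73 on the GDC-0623 arrays, against 10.19, 10.25 and 10.23 on the DMSO arrays. The first GDC-0623 replicate was the lowest of its group for 46 members at 24 h and for all 47 at 72 h. Replicates under the drug had larger SDs than controls, with a median SD over members of 0.146 in 24 h GDC-0623 cultures and 0.0351 in 24 h DMSO cultures, and of 0.193 and 0.052 at 72 h. Over all genes the median SDs were 0.0907 and 0.0751 at 24 h, and 0.106 and 0.0814 at 72 h. Without the first GDC-0623 replicate the median change of the members was -0.39 at 24 h, with 35 lower, and -0.52 at 72 h, with 43 lower. Of all probe sets, 5.21% and 7.88% were then lower.

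**Figure D3:**
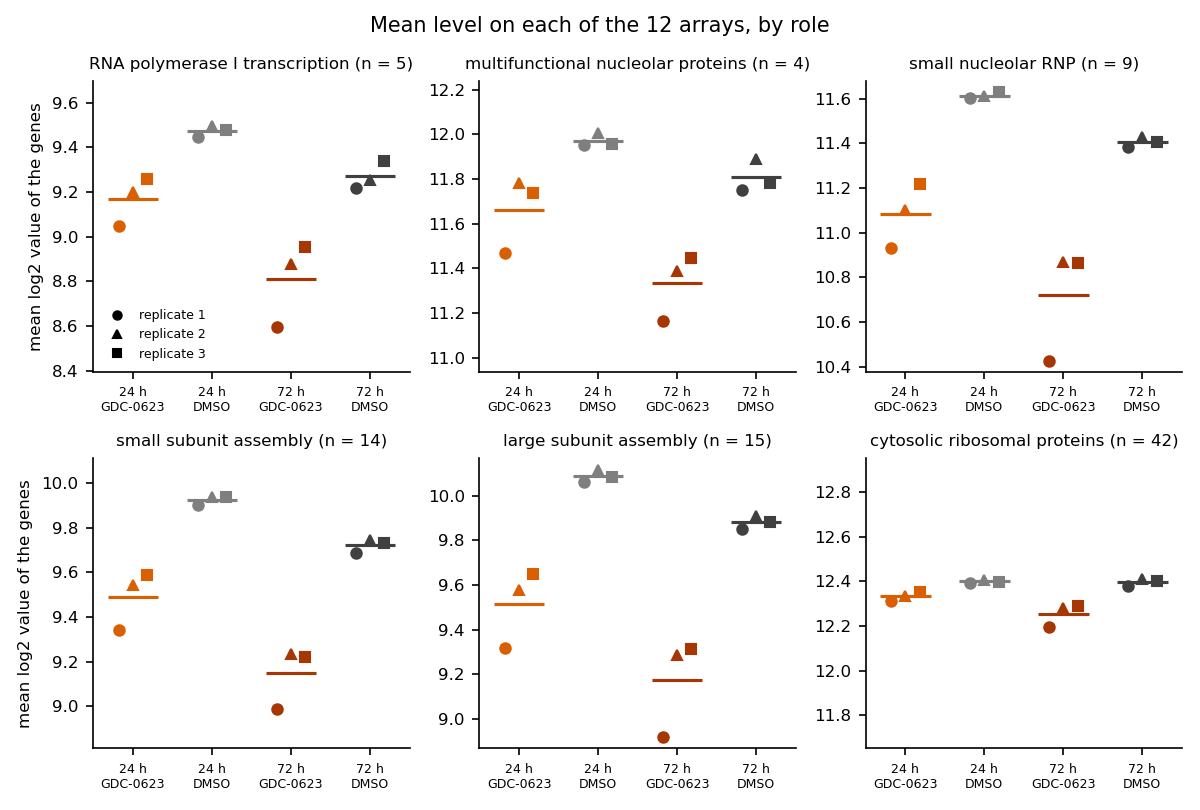
Mean log2 value of the genes of each role, and of 42 cytosolic ribosomal protein genes, on each of the 12 arrays. Symbols give the replicate number and lines the group mean, GDC-0623 stands left of DMSO at each time, and all panels span the same range. In the panel of the ribosomal protein genes the GDC-0623 arrays lie at 12.31 to 12.35 at 24 h, against 12.39 to 12.41 under DMSO, and at 12.20 to 12.29 at 72 h, against 12.38 to 12.41.

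Whether the drug effect at 72 h differed from that at 24 h was tested on all 12 arrays. The drug change was more negative at 72 h for 40 of the 47 members. The median difference was -0.17, beside -0.01 over all genes and -0.05 over genes with a mean of at least 7. No member was called lower, against 1.46% of all genes, or higher, against 1.62%. An unadjusted p under 0.05 was found for 4 of the 47 members, beside 3102 of all 18193 genes. The most negative differences were those of Wdr12 (-0.42 ± 0.14 SE, adjusted p = 0.172), Tcof1 (-0.41 ± 0.13 SE, adjusted p = 0.133), Utp18 (-0.41 ± 0.12 SE, adjusted p = 0.0973) and Nhp2 (-0.40 ± 0.18 SE, adjusted p = 0.336). Without the first GDC-0623 replicate of 72 h the median difference was -0.04. Utp18 passed with dim probe sets left out (adjusted p = 0.0432), with a trended and robust prior (adjusted p = 0.028) and without the first GDC-0623 replicate of 24 h (adjusted p = 0.0496). Across the members, the 24 h and 72 h changes had a Pearson r of 0.744 and a Spearman rho of 0.683, over genes that share the same arrays.

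Some members also fell with time in culture. In DMSO, 20 of 47 were lower at 72 h than at 24 h, against 5.14% of all genes, and 0 were higher, against 8.41%, with a median log2 change of -0.20. Rrp12 fell most (-0.69 ± 0.07 SE, adjusted p = 0.000996), with the values given above, followed by Nop58 (-0.44 ± 0.081 SE, adjusted p = 0.0113), Grwd1 (-0.44 ± 0.058 SE, adjusted p = 0.00301) and Nop2 (-0.43 ± 0.075 SE, adjusted p = 0.00891). Within GDC-0623, 5 of 47 were lower at 72 h than at 24 h, against 3.11% of all genes, and 0 were higher, against 5.79%, although the median change was larger at -0.33 and all 47 estimates were negative. The 5 were Rrp12 (-0.72 ± 0.16 SE, adjusted p = 0.025), Imp4 (-0.61 ± 0.13 SE, adjusted p = 0.0209), Ddx21 (-0.50 ± 0.13 SE, adjusted p = 0.0488), Nob1 (-0.49 ± 0.11 SE, adjusted p = 0.0259) and Tcof1 (-0.48 ± 0.11 SE, adjusted p = 0.0305). Among genes with a mean of at least 7, 9.72% were lower with time in DMSO and 5.61% in GDC-0623. Both member counts depended on the fit. With 1 fit over all 12 arrays, 8 members fell in DMSO and 26 in GDC-0623, where the share of all probe sets called lower was 3.82% and 6.96%, against 4.59% and 2.66% in the fits on 6 arrays. Leaving out 1 array gave 7 to 14 members in DMSO, beside 1.96% to 3.18% of all probe sets, and 0 to 8 in GDC-0623, beside 0.389% to 1.83%.

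A wider list of 132 other genes of the pathway, of which 129 were measured, also gave mostly lower calls, with medians nearer to 0 than those of the members. At 24 h, 91 were lower and 0 higher under GDC-0623, against 8.23% and 13.3% of all genes, with a median of -0.36. At 72 h, 94 were lower and 1 higher, against 12.4% and 13.8% of all genes, with a median of -0.47. By group, 33 and 36 of 46 further small subunit genes were lower at 24 h and 72 h, 34 and 35 of 49 further large subunit genes, 8 and 6 of 10 further small nucleolar ribonucleoprotein genes, 5 and 6 of 11 further polymerase I genes, and 11 of 13 subunits and partners of the RNA exosome at both times. Tma16, from the large subunit list, had the largest 72 h change (-0.79, adjusted p = 0.000597 at 24 h and -0.92, adjusted p = 0.00147 at 72 h). Others were the AAA ATPase Ruvbl2, which helps to assemble box C/D particles (-0.67, adjusted p = 0.000343 and -0.85, adjusted p = 0.0029), the GTPase Gtpbp4 (-0.51, adjusted p = 0.00186 and -0.85, adjusted p = 0.000818) and Dis3, a nuclease of the exosome (-0.51, adjusted p = 0.00124 and -0.82, adjusted p = 0.00186). With the shift by hybridisation controls, 30 of the 129 were lower at 24 h and 82 at 72 h, against 1.99% and 7.86% of all probe sets.

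The cytosolic ribosomal proteins, which these factors assemble with the RNA, were called lower about as often as all genes, and less often than well expressed genes. Only 42 of 76 had a probe set with a single symbol. Of the 42, 3 were lower at 24 h and 4 at 72 h, and 0 were higher, or 7.14% and 9.52%, beside the 8.23% and 12.4% of all genes that fell, with medians of -0.03 and -0.11. Of the 42, 40 had a mean of at least 7, and among all genes with such a mean 14.7% and 23.1% fell. Estimates were nonetheless negative for 37 of the 42 at 24 h and 40 at 72 h, and all GDC-0623 arrays lay below all DMSO arrays for 10 at 24 h and 29 at 72 h, beside the 20.0% and 23.7% of all genes given above. The genes that fell were Rpl12 (-0.60, adjusted p = 0.00332 and -0.70, adjusted p = 0.00329), Rpl14 (-0.33, adjusted p = 0.0264 and -0.66, adjusted p = 0.00656) and Rps6 (-0.31, adjusted p = 0.0106 and -0.34, adjusted p = 0.0299) at both times, and Rpl37 at 72 h (-0.37, adjusted p = 0.00864). These 4 had means of 8.09 to 10.97, whereas 32 of the 42 were brighter on average than the brightest biogenesis factor, Npm1, and 0 of these 32 passed the test.

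**Figure D4:**
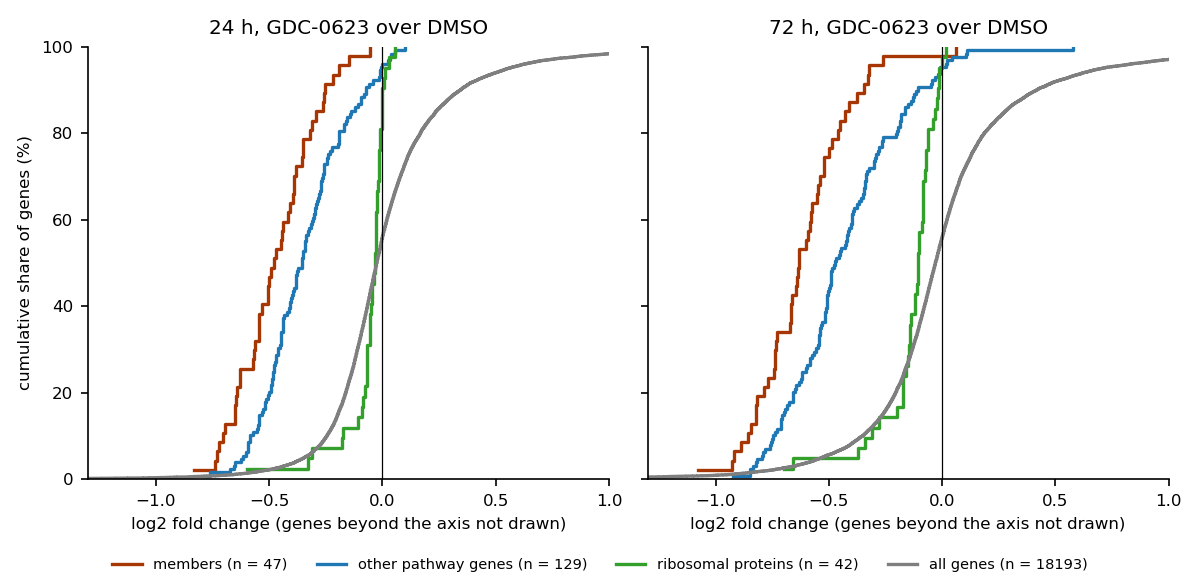
Cumulative share of genes by log2 fold change of GDC-0623 over DMSO at 24 h and 72 h, for the 47 members, 129 other pathway genes, 42 cytosolic ribosomal proteins and all 18193 genes. The median of the members is -0.48 at 24 h and -0.63 at 72 h, that of the other pathway genes -0.36 and -0.47, and that of the ribosomal proteins -0.03 and -0.11.

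Transcripts upstream of the pathway were read on the same arrays. Myc, the transcription factor whose targets include many of these genes, had 9.51, 9.80 and 10.03 on the GDC-0623 arrays, against 10.64, 10.68 and 10.66 on the DMSO arrays at 24 h. At 72 h it had 10.05, 10.26 and 9.98 on the GDC-0623 arrays, against 11.16, 11.16 and 11.04 on the DMSO arrays. Myc fell under the drug (-0.88, adjusted p = 0.000953 at 24 h and -1.02, adjusted p = 0.00014 at 72 h) but rose with time in DMSO by 0.46 on the log2 scale (adjusted p = 0.00353). Its partner Max did not pass the test at 24 h (0.05, adjusted p = 0.889) and was higher at 72 h (0.34, adjusted p = 0.029), and Mnt, a repressor that also binds Max, was higher at both times (0.28, adjusted p = 0.0298 and 0.33, adjusted p = 0.0483). Of 10 transcripts that follow ERK activity, 9 were lower at 24 h and 7 at 72 h, against 8.23% and 12.4% of all genes. Among them was Dusp6 (-2.12, adjusted p = 7.06e-05 and -1.49, adjusted p = 0.000942). Egr1 read 3.81, 4.31 and 4.13 on the GDC-0623 arrays, against 9.09, 9.00 and 8.86 on the DMSO arrays at 24 h (adjusted p = 1.32e-07). At 72 h it read 6.61, 5.73 and 4.83 on the GDC-0623 arrays, against 11.74, 11.58 and 10.55 on the DMSO arrays (adjusted p = 5.7e-05). The 24 h GDC-0623 values were as low as those of the dim marker genes, so no fold is given for Egr1.

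A second look at the members came from probe sets that the rule had passed over. For 33 members there were 50 further probe sets with a single symbol, on the same arrays. Of these, 36 were lower and 0 higher under GDC-0623 at 24 h, and the counts were the same at 72 h, against 7.43% of all probe sets called lower at 24 h and 10.2% at 72 h. Among the 31 with a mean of at least 7, 25 were lower at 24 h, against 15.6% of all probe sets this bright, and 29 at 72 h, against 23.5%. The second probe set of Npm1 fell at 24 h by 0.28 (adjusted p = 0.0182), and that of Ddx21 by 0.69 (adjusted p = 0.000499), although the brighter probe sets of both genes did not pass at that time. Further probe sets this bright that missed at 24 h were 2 of Tcof1 (adjusted p = 0.116 and 0.0827) and 1 each of Ncl (0.128), Noc4l (0.0554), Nop10 (0.102) and Pes1 (0.0505). Those of Pes1 (adjusted p = 0.0548) and Ubtf (0.772) missed at 72 h.

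The promoters of the members are shown because the genes moved together and because the box bound by Myc and the core bound by ETS factors, a family with members that ERK phosphorylates, are short enough to be searched. RefSeq promoters (GRCm38.p6, 250 bases before to 50 after the start site) were matched for 41 of the 47 measured members. The E-box CACGTG, which reads the same on both strands, was present in 9 of the 41 (22.0%), beside 8.09% of all genes and 12.7% of genes with a mean of at least 7. The ETS core CCGGAA, searched on both strands, was present in 20 of the 41 (48.8%), beside 16.7% of all genes and 35.9% of genes with a mean of at least 7. The 9 E-box genes were Grwd1, Imp4, Ltv1, Mybbp1a, Nop2, Pes1, Utp18, Utp20 and Wdr43. Their median change at 72 h was -0.59, against -0.65 for the 32 members without the box. For the ETS core the 72 h medians were -0.65 in the 20 members with it and -0.60 in the 21 without. At 24 h the medians were -0.45 with the E-box and -0.50 without it. They were -0.54 with the ETS core and -0.45 without it. A match is a description of letters and not of a bound site. In the windows below, given 5′ to 3′ on the strand of the gene with 10 bases on either side, capitals mark the E-box of Imp4, Nop2, Utp18 and Wdr43, at chr1:34439698-34439723 (+), chr6:125131813-125131838 (+), chr11:93885771-93885796 (-) and chr17:71616222-71616247 (+), and then the ETS core on either strand of Nop58, Heatr1, Nhp2 and Polr1c, at chr1:59684870-59684895 (+), chr13:12395349-12395374 (+), chr11:51619740-51619765 (+) and chr17:46248072-46248097 (-).
Imp4: ggtcttagacCACGTGacatcccaaa
Nop2: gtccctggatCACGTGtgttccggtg
Utp18: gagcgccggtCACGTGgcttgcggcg
Wdr43: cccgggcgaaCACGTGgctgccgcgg
Nop58: ggccgtctctTTCCGGattctactgt
Heatr1: tagtgagaagCCGGAAgttcctatga
Nhp2: acttgaaaacCCGGAAgtgatgtcgg
Polr1c: cacttgacgtCCGGAAgtgaaggacg
Imp4 and Nop2 carry the box 121 and 60 bases before the start, Utp18 20 bases before it, and Wdr43 17 bases after it.

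Nop2, Grwd1, Ltv1 and Utp18 held both motifs. The 250 bases upstream of Nop2 (chr6:125131633-125131882, + strand) are printed in full because the E-box and 2 ETS cores, in capitals, stand close to each other there.
Nop2: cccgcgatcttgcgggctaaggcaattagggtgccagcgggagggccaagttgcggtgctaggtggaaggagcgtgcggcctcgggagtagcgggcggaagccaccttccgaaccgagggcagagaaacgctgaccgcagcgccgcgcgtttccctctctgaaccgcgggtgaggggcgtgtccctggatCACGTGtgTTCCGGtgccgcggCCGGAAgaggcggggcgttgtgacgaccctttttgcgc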

How the data were processed

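RNA from 12 MC38 cultures was hybridised to 1-colour Affymetrix mouse expression arrays. The deposited values are log2 expression values, which the authors made by robust multichip averaging (RMA), a method that the submitters' processing notes name without a version. Of 45101 probe sets, 64 controls were left out and 45037 tested, and 34945 had 1 symbol, 932 several and 9160 none in the annotation used. Gene identifiers of 34741 were matched to RefSeq.

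Groups were compared with limma 3.58.1 in R 4.3.3 (lmFit and eBayes, two-sided), on the 6 arrays of each pair of groups or, for the difference between the drug effects, on all 12, with Benjamini-Hochberg adjustment over the tested probe sets and a threshold of 0.05. All adjusted p-values come from these fits. Shares of all genes refer to 18193 genes with 1 probe set each. RMA values carry no detection call, and the number of arrays limits the precision. The fits were tested on simulated data. The members and lists, among them the other pathway genes, were chosen with earlier results of these data known. Values on every array are given for the 3 members per role with the largest change at 72 h, the 2 at 24 h, the 4 called members with the largest change in each time comparison, and those called in neither drug comparison. For other lists at most 4 genes with the largest change at 72 h and a mean of at least 6 in the higher group were named, and Rps6, Rpl37, Max, Mnt, the lost calls and the second probe sets were named after their values were seen. Alternatives were a single fit to the 12 arrays, a block for replicate number, a filter keeping probe sets at 5 or more on 3 arrays, repeated quantile normalisation, a shift by hybridisation controls, a trended and robust prior, array weights, the mean of a gene's probe sets, and leaving out each array. Python 3.11.15 with pandas 2.3.3 and matplotlib 3.10.9 made the summaries and figures.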

Additional observations from a re-analysis of the deposited data

Results flagged for a closer look

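None of the 47 members passed the test of the difference between the GDC-0623 effects at 72 h and 24 h, and 2 of the 129 other pathway genes did. Of all genes, 3.08% passed it in either direction. Taf1b, a subunit of the SL1 factor that selects the ribosomal DNA promoter, read 7.85, 7.87 and 7.89 on the 24 h GDC-0623 arrays, against 7.84, 7.97 and 7.84 on the 24 h DMSO arrays, and 7.57, 7.94 and 7.78 on the 72 h GDC-0623 arrays, against 8.38, 8.46 and 8.40 on the 72 h DMSO arrays. The drug effect was -0.01 at 24 h and -0.65 at 72 h, a difference of -0.64 (limma, adjusted p = 0.0135), and Taf1b rose by 0.53 with time in DMSO. Ddx24, an RNA helicase of the large subunit list, read 9.42, 9.43 and 9.50 on the 24 h GDC-0623 arrays, against 9.62, 9.59 and 9.65 on the 24 h DMSO arrays, and 10.06, 9.97 and 9.99 on the 72 h GDC-0623 arrays, against 9.42, 9.39 and 9.48 on the 72 h DMSO arrays. Its drug effect was -0.17 at 24 h and 0.58 at 72 h, a difference of 0.75 (adjusted p = 0.000591), and of 0.34 (adjusted p = 0.0389) when its probe sets were averaged.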

How the results depend on the processing

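With every alternative, the number of members higher under GDC-0623 stayed at 0 at both times and the median stayed negative. Of the 42 members lower at 24 h, 22 passed under each alternative and omission, and of the 45 at 72 h, 36. The shift by hybridisation controls cut the 24 h count to 23 and its median to -0.33, while the median over all probe sets became 0.11. Leaving out 1 array gave 33 to 39 lower members at 24 h, with medians of -0.52 to -0.39, and 39 to 45 at 72 h, with medians of -0.70 to -0.52. The share of all probe sets called lower then ran from 4.69% to 6.47% at 24 h and from 6.22% to 9.09% at 72 h. For the difference of the drug effects, 1 member (Utp18) was lower with the filter on dim probe sets (3.54% of those kept) and with the trended and robust prior (1.5% of all probe sets). The shift gave a median of -0.31, beside -0.14 over all probe sets. Omissions gave 0 to 1 lower (0.58% to 1.1% of all probe sets) and medians of -0.23 to -0.043. In DMSO over time, 8 were lower in the fit over all arrays (3.82% of all probe sets), 5 with the shift (1.97%, member median -0.16) and 26 with the filter (15.4% of those kept). The trended and robust prior gave 29 (7.64%), averaged probe sets 27 (7.68% of genes) and omissions 7 to 14 (1.96% to 3.18%). In GDC-0623 over time, 26 were lower in the fit over all arrays (6.96% of all probe sets), 9 with the filter (9.03% of those kept) and 29 with the shift (7.72%). Under the shift the member median was -0.44 and that of all probe sets -0.13. The trended and robust prior gave 13 (4.23%), array weights 8 (3.32%), averaged probe sets 8 (3.86% of genes) and omissions 0 to 8 (0.389% to 1.83%). The replicate numbers were not taken to pair the samples: the labels give them no meaning beyond a number, and correlations between same-numbered arrays ran from 0.0135 to 0.289, with at least 1 of 3 under 0.1 in every comparison. As a hint from the data, in 10 of 12 cases the own number correlated best. The means with the other numbers (-0.158 to -0.00708) add nothing to this. Deviations from a group mean cancel within the group, which ties these means to the own-number values. With the replicate number as a block, 40 members were lower at 24 h, 45 at 72 h, 0 for the difference, 14 in DMSO over time and 26 in GDC-0623 over time. In the same order, 6.79%, 9.96%, 1.31%, 3.67% and 4.37% of all probe sets were lower. Of the other values for named members, 602 were alike, 36 lost and 6 gained the call. The cause of these shifts was not tested.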
